A study of Rattus norvegicus with 3 samples.

Results

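The genes of complement, blood coagulation and fibrinolysis were followed across 3 soft tissues of the rat upper jaw, with 1 microarray per tissue. Of 48 genes listed by symbol, 41 had a probe set (several short probes summarised into 1 value) annotated with exactly 1 gene symbol, among 14217 genes measured in this way. C2, Cfb, C4a, C4b and C7 lay only on probe sets shared with another gene, and the symbols Cd59 and F7 were not matched, so these 7 genes were not analysed here. The brightest probe set stood for each gene.

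The animals were male wild-type Sprague-Dawley rats, 9 weeks old at harvest. Peri-implant connective tissue (PICT) came from beside a titanium alloy implant, placed at once where an upper first molar had been pulled at 5 weeks of age, and was taken 4 weeks later. Oral mucosal connective tissue (OMCT) came from an extraction site that had healed for 4 weeks without an implant. Periodontal connective tissue (PCT) came from beside the upper first molar, with no extraction or implant named for this group. The design text once calls the PCT donors mice, whereas each sample label gives rat. All tissue was cut out by laser microdissection. The labels do not give the number of animals behind an array. Since each tissue has a lone array, no replicate spread exists, and neither a test nor a p-value could be had.

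Complement is a set of plasma and tissue proteins that mark microbes and debris. C1q with its proteases C1r and C1s starts the classical pathway, mannose-binding proteins with the Masp proteases start the lectin pathway, and both lead to cleavage of C3 and C5, whose small fragments C3a and C5a attract and activate phagocytes through C3ar1 and C5ar1. Coagulation ends in thrombin, which cuts fibrinogen into fibrin and also signals to cells, and plasmin, made from plasminogen by Plat and Plau, dissolves fibrin. Many of the plasma proteins are made in the liver, while C1q is made largely by macrophages and dendritic cells, and several receptors and regulators sit on leukocytes and endothelium.

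Array-wide values bear on every comparison. The arrays had median intensities of 56.5 (PICT), 34.3 (PCT) and 57.4 (OMCT), a shift on the log2 scale of 0.60 for PICT minus PCT and 0.62 for OMCT minus PCT, against -0.02 for PICT minus OMCT. Differences below are therefore log2 differences relative to the array medians unless "as deposited" is written. They were taken after 8.56 was added to each intensity, so differences of dim genes are understated. In the comparisons with PCT, genes near the floor on both arrays then read as lower in PICT or OMCT, by about the shift. Fgb, at 1.16 (PICT) and 1.17 (PCT), gave -0.60 for PICT minus PCT. Such genes also enter the medians over the set and over all genes. Here a gene counts as higher or lower if it differed by at least 1 on this scale (2-fold) and if its brighter array reached the median probe set of that array. Between probe sets of the same gene these differences had an SD of 0.49 in each comparison, which is the only technical spread that can be had here. The ratio of the 3' to the 5' control probe set for hexokinase, which grows as RNA is shortened, was 2.80 in PCT, 1.58 in PICT and 1.97 in OMCT, and its part in the results was not tested. The highest negative control probe set read 8.36 (PICT), 5.71 (PCT) and 3.60 (OMCT).

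The labelled connective tissue carried its markers: all 7 fibroblast markers lay above the negative control on every array, with Col1a1 at 5552 (PICT), 6651 (PCT) and 8189 (OMCT). Epithelial RNA was present too. The summed intensity of 7 basal epithelial markers was 26568 (PICT), 27808 (PCT) and 22373 (OMCT), and that of 7 markers of differentiated epithelium was 20777, 16793 and 1429. Because each array holds a mixture of cells, fewer cells of a type and less RNA per cell cannot be told apart in any of the values below.

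Of the 41 genes, 28 reached the median probe set of at least 1 array (68.3%, against 69.3% of all genes), and 20 were counted in at least 1 comparison (48.8%, against 16.7% of all genes). Among the 28, OMCT was the brightest tissue for 15 genes (53.6%, against 35.4% of all genes that reached a median), PICT for 10 (35.7%, against 28.7%) and PCT for 3 (10.7%, against 35.9%). The tissue beside the natural tooth was the dimmest for 19 of the 28 (67.9%, against 32.7%). A gene could enter the 28, or the genes set against them, through its brightest tissue alone, and 21 of the 28 reached the median of every array. Near ties were ranked too, such as F8, with 0.02 between PICT and OMCT. The 3 comparisons share arrays, so their counts are not independent of each other.

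**Figure D1:**
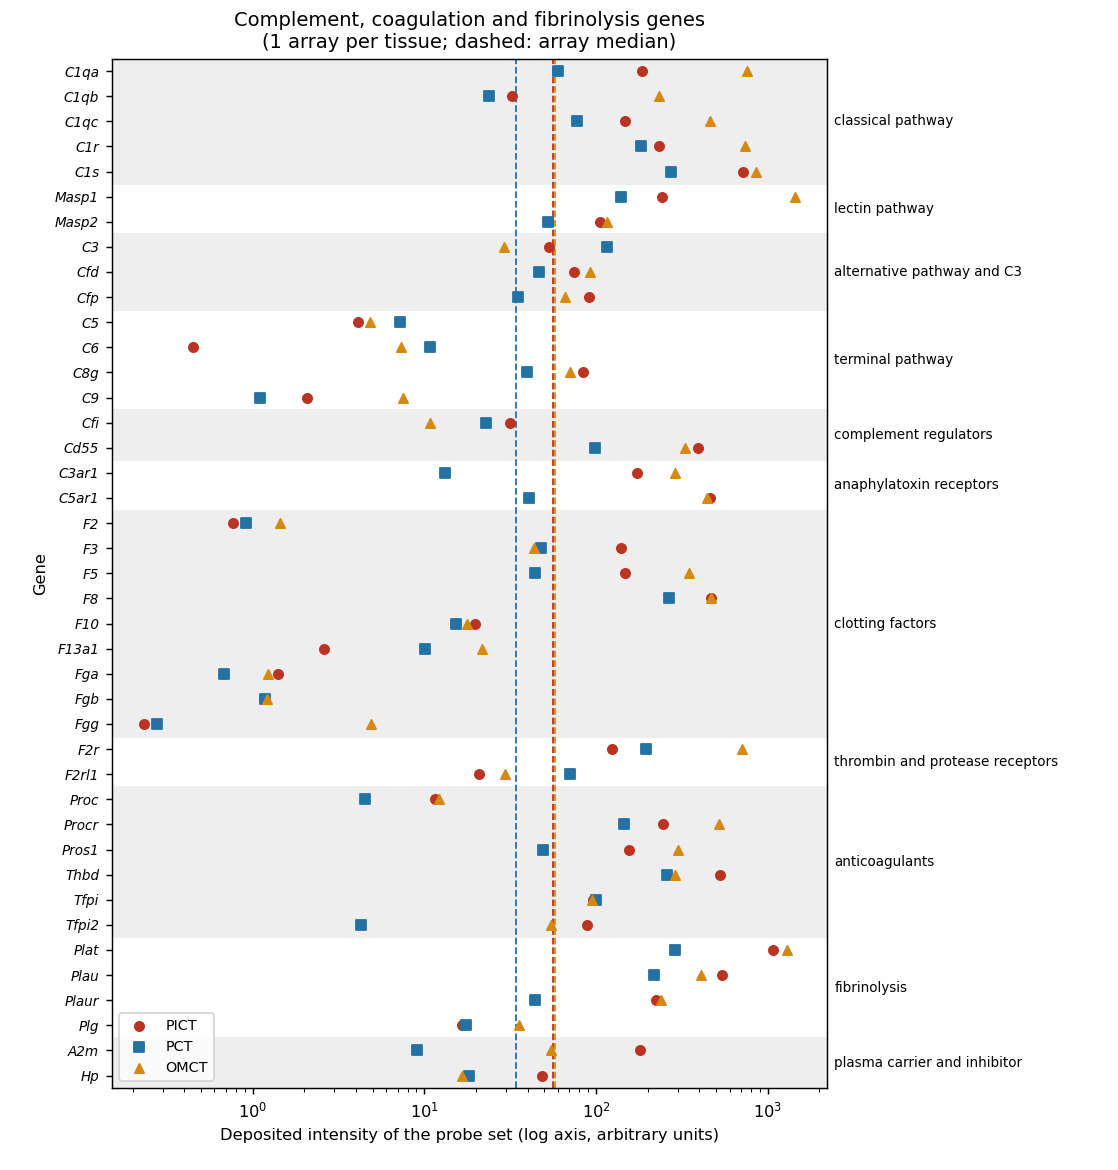
Deposited intensity (log axis, arbitrary units) of the 41 measured genes, grouped by role, with 1 point per tissue and dashed lines at the array medians of 56.5 (PICT), 34.3 (PCT) and 57.4 (OMCT). The C1q chains and Masp1 stand apart in OMCT, C3ar1 and C5ar1 in both PICT and OMCT, and the fibrinogen chains lie below 5 on every array.

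Of 5 measured genes for the recognition and protease subunits of the classical pathway, 5 were higher in OMCT than in PCT and 4, all but C1s, were lower in PICT than in OMCT. Over all genes, 5.66% were counted higher in OMCT than in PCT and 4.46% lower in PICT than in OMCT. C1qa, C1qb and C1qc encode the 3 chains of C1q, which binds antibody complexes and dying cells. C1qa had an intensity of 186 (PICT), 59.8 (PCT) and 758 (OMCT). For C1qb these values were 32.3, 23.9 and 233. C1qc read 147 (PICT), 77.9 (PCT) and 464 (OMCT). On each chain OMCT was the highest array, and PICT lay nearer to PCT than to OMCT. OMCT exceeded PCT by 2.86 for C1qa, 2.27 for C1qb and 1.83 for C1qc, and PICT differed from OMCT by -1.96, -2.54 and -1.59. Between PICT and PCT none of the 3 chains was counted, with differences of 0.90, -0.27 and 0.24. As deposited these were 1.51, 0.33 and 0.84, so C1qa passed 2-fold and the sign of C1qb turned.

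The 3 C1q genes are neighbours in the rat genome, in the order C1qb, C1qc, C1qa among protein-coding genes of RefSeq (assembly GRCr8). The 250 bases before the RefSeq start of C1qa (chr5:154419934-154420183, minus strand) and C1qb (chr5:154407828-154408077, minus strand) are shown because these genes shared the pattern above. Capitals would mark a match to any of the motifs described further on, and neither window holds one. A window for C1qc was not analysed here.
C1qa: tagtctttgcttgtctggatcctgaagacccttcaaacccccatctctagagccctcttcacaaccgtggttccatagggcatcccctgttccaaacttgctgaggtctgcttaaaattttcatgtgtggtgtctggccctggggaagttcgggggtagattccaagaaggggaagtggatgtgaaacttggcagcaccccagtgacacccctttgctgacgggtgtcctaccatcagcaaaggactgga
C1qb: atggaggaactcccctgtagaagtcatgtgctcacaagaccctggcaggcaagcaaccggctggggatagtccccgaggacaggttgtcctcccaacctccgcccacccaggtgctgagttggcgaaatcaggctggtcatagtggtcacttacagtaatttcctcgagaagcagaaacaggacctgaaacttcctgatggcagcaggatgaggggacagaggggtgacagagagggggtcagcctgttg

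C1r and C1s, the serine proteases that ride on C1q, are also next to each other in the genome but did not move as a pair. C1r had an intensity of 234 (PICT), 182 (PCT) and 739 (OMCT). C1s stood at 717, 272 and 859. C1r thus resembled C1q, high in OMCT alone, while C1s in PICT lay close to OMCT. OMCT exceeded PCT by 1.35 for C1r and by 1.004 for C1s, the latter at the edge of the 2-fold rule and under it with quantile normalization (0.98). PICT differed from OMCT by -1.61 for C1r and -0.24 for C1s.

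Of the lectin pathway proteases, Masp1 followed the C1q chains and Masp2 did not. Masp1, a trigger protease of this pathway, read 243 (PICT), 141 (PCT) and 1437 (OMCT). OMCT minus PCT was 2.66 and PICT minus OMCT -2.50, whereas PICT and PCT differed by 0.15. Masp1 has 3 probe sets with the same direction but unlike sizes: OMCT minus PCT was 2.66, 1.94 and 1.26, and PICT minus OMCT was -2.50, -1.63 and -0.33. Masp2, which cleaves C4 and C2, read 106 (PICT), 52.4 (PCT) and 115 (OMCT) and was counted in no comparison (0.31, -0.09 and 0.40 for PICT minus PCT, PICT minus OMCT and OMCT minus PCT).

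C3, the component on which the pathways meet, ran the other way. Its intensity was 53.1 (PICT), 116 (PCT) and 29.0 (OMCT), so the tissue beside the tooth was the highest and OMCT the lowest. The difference was -1.62 for PICT minus PCT and -2.35 for OMCT minus PCT, and 0.74 for PICT minus OMCT. C3 and F2rl1, described below, were the genes of the set counted lower in OMCT than in PCT. They were 2 of 41 (4.88%), a share near the 4.81% of all genes. Of the alternative pathway, Cfd (factor D, the protease that cuts factor B) read 74.8 (PICT), 46.7 (PCT) and 92.3 (OMCT), and Cfp (properdin, which stabilises the C3 convertase) read 90.9, 35.2 and 65.8. Neither was counted, with differences from -0.25 to 0.58.

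Among the terminal components that build the membrane pore, only C8g, a lipocalin chain of C8, reached an array median. C8g read 83.8 (PICT), 39.7 (PCT) and 70.1 (OMCT) and differed by at most 0.33. C5, C6 and C9 lay under 11 on every array, below the median probe set of each.

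Receptors for the C3a and C5a fragments were higher at both extraction sites, with or without an implant. C3ar1 had an intensity of 174 (PICT), 13.1 (PCT) and 290 (OMCT). C5ar1 read 460.1, 40.6 and 440.1. For both receptors PCT stood far below the other arrays. PICT exceeded PCT by 2.47 for C3ar1 and 2.65 for C5ar1, and OMCT exceeded PCT by 3.16 and 2.57. Between PICT and OMCT they differed by -0.69 and 0.08 and were not counted. Cd55 (decay-accelerating factor, which breaks up convertases on host cells) was also higher in both than in PCT, with smaller steps: 392 (PICT), 98.3 (PCT) and 331 (OMCT), or 1.30 for PICT minus PCT and 1.05 for OMCT minus PCT. Its other probe set gave 0.87 and 0.94, under 2-fold. Cfi (factor I, which inactivates C3b) read 31.6, 22.8 and 10.7, below the median of every array.

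Macrophage markers differed along with these receptors. Of 8 measured, 6 were higher in PICT than in PCT, 7 were higher in OMCT than in PCT, and 1 (Adgre1) was lower in PICT than in OMCT. Their summed intensity was 2890 (PICT), 301 (PCT) and 3880 (OMCT), and all 8 exceeded the negative control on every array. The mean difference of the 8 markers was 1.95 for PICT minus PCT and -0.50 for PICT minus OMCT. For the 3 C1q chains these means were 0.29 and -2.03, and for the receptors C3ar1 and C5ar1 they were 2.56 and -0.30. The C1q chains therefore lay further below OMCT in PICT than any of the 8 macrophage markers, which ranged from -1.33 (Adgre1) to 0.18 (Tyrobp). The nearest pair, C1qc (-1.59) and Adgre1, lay closer together than the SD of 0.49 between probe sets of a gene. Each C1q chain has 1 probe set. No error can be put on the contrast of C1q chains and markers, and the part of macrophage number in it was not tested.

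**Figure D2:**
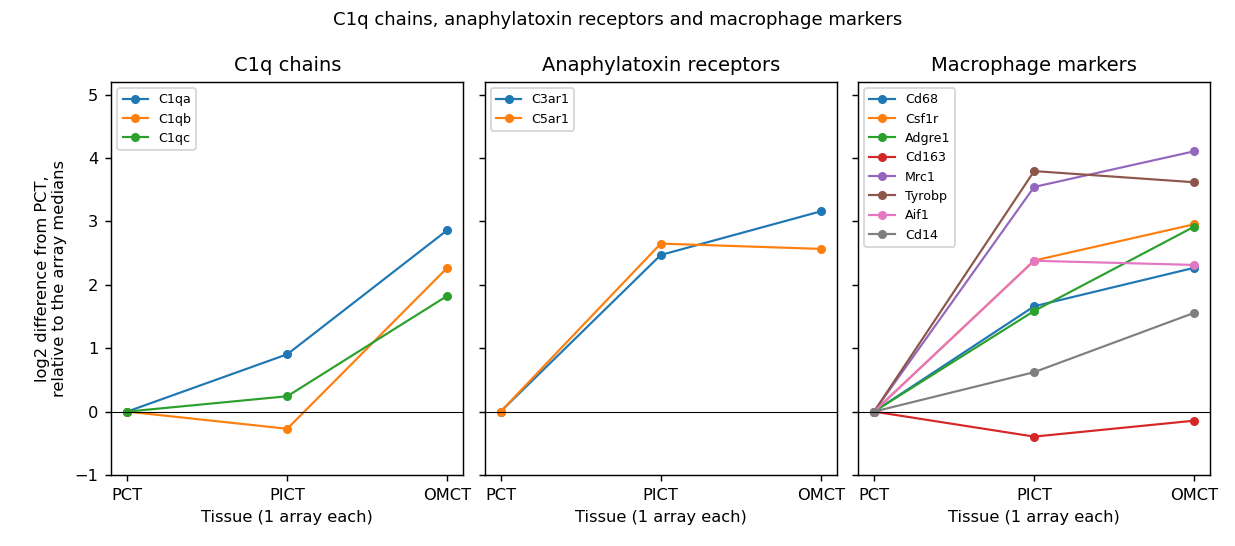
Log2 difference from PCT, relative to the array medians, for the 3 C1q chains, the receptors C3ar1 and C5ar1 and 8 macrophage markers; lines join the values of a gene and the tissues have no order. In PICT the C1q chains lie between -0.27 and 0.90 above PCT, while C3ar1 and C5ar1 lie at 2.47 and 2.65.

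Most clotting factor genes were dim, and those that were not had separate patterns. F3 (tissue factor, the cell surface trigger of coagulation) read 141 (PICT), 47.7 (PCT) and 43.6 (OMCT), so it was highest beside the implant. It was counted higher in PICT than in OMCT (1.54) and not in PICT than in PCT (0.80, or 1.41 as deposited, which is past 2-fold). F5 (factor V, the cofactor of factor Xa) read 148 (PICT), 44.4 (PCT) and 348 (OMCT). OMCT exceeded PCT by 2.13, PICT minus OMCT was -1.17, and PICT minus PCT was 0.96, or 1.56 as deposited. F8 (factor VIII, the cofactor of factor IXa) read 469, 265 and 469, with differences of at most 0.20 on its brightest probe set. Its 5 probe sets ranged from -1.41 to 0.97 for OMCT minus PCT and disagreed in direction.

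The 2 listed receptors through which thrombin and other proteases signal were both lower in PICT than in PCT. The related receptor genes F2rl2 and F2rl3, from the further coagulation genes below, were counted in no comparison. Their PICT minus PCT differences were positive, with PCT values that did not exceed the negative control. F2r (PAR1, the main thrombin receptor) had an intensity of 123 (PICT), 196 (PCT) and 707 (OMCT). F2rl1 (PAR2, which trypsin-like proteases open and which is common on epithelium) read 20.9, 70.3 and 29.5. OMCT was thus the highest tissue for F2r, and PCT for F2rl1. PICT minus PCT was -1.24 for F2r and -2.02 for F2rl1, against a background of 3.37% counted lower, and the F2r value was -0.63 as deposited. PICT minus OMCT was -2.42 for F2r. OMCT minus PCT was 1.19 for F2r and -1.67 for F2rl1, opposite in direction.

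Of 6 measured anticoagulant genes, Tfpi2, Procr and Pros1 were counted in at least 1 comparison, and Thbd, Tfpi and Proc in none. Tfpi2 (a Kunitz-type inhibitor of plasmin and other proteases that is laid down in matrix) read 88.9 (PICT), 4.25 (PCT) and 54.4 (OMCT). Its PCT value did not exceed the negative control, so PICT was at least 4.50-fold higher than PCT when PCT is set at that control. OMCT was at least 2.86-fold higher than PCT in the same way. The OMCT minus PCT difference of Tfpi2 (1.67) was not counted, since 54.4 is below the OMCT median. PICT minus OMCT was 0.65 for Tfpi2 and not counted. Procr, the endothelial receptor for protein C, read 245 (PICT), 145 (PCT) and 523 (OMCT). OMCT exceeded PCT by 1.17, and PICT minus OMCT was -1.05. Pros1 (protein S, cofactor of activated protein C) read 156, 49.4 and 302, and was higher in OMCT than in PCT by 1.80. Its PICT value differed by 0.90 from PCT (past 2-fold as deposited) and by -0.90 from OMCT.

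Thbd and Tfpi were counted in no comparison. Thbd (thrombomodulin, which turns thrombin towards protein C) read 526 (PICT), 260.2 (PCT) and 290.0 (OMCT). The differences were 0.39 for PICT minus PCT, 0.86 for PICT minus OMCT and -0.47 for OMCT minus PCT. Its 3 probe sets disagreed in direction for PICT minus PCT (0.39, -0.05 and -0.42). Tfpi (tissue factor pathway inhibitor) read 96.0, 99.8 and 94.9. Relative to the array medians PCT was its highest tissue, with -0.65 for PICT minus PCT and -0.69 for OMCT minus PCT. Its other probe set gave -0.11 and -0.22. Endothelial markers were counted lower in PICT for 3 of 7 against PCT and for 3 of 7 against OMCT, and 0 of 7 were counted between OMCT and PCT. As deposited, 1 of 7 was lower in PICT against PCT and 3 of 7 against OMCT. Their summed intensity was 2216 (PICT), 2419 (PCT) and 3765 (OMCT), and their part in the values of Procr and Thbd was not tested.

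Of 4 measured genes of fibrinolysis, Plat and Plaur were counted higher at both extraction sites than beside the tooth, and Plau and Plg were not counted. Plat (tissue plasminogen activator) had an intensity of 1069.9 (PICT), 287 (PCT) and 1299.8 (OMCT). Plaur, the receptor that holds urokinase on the cell surface, read 224, 44.0 and 238. In both genes PICT and OMCT lay close together, with PCT below. PICT exceeded PCT by 1.26 for Plat and 1.54 for Plaur, and OMCT exceeded PCT by 1.52 and 1.61. PICT minus OMCT was -0.26 and -0.06. The other probe set of Plaur gave steps over PCT of under 2-fold, 0.98 for PICT and 0.43 for OMCT. Plau (urokinase) read 540 (PICT), 219 (PCT) and 409 (OMCT) and was not counted (0.67 for PICT minus PCT, or 1.27 as deposited). Plg, which encodes plasminogen, stood at 16.5, 17.5 and 35.7, below every array median.

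A2m had the widest difference of the set between PICT and PCT. It encodes alpha-2-macroglobulin, a broad protease trap that in rats is an acute phase protein. A2m read 181 (PICT), 9.05 (PCT) and 54.6 (OMCT), so all 3 tissues were set apart and PICT was the highest. PICT exceeded PCT by 2.82 and OMCT by 1.61. OMCT exceeded PCT by 1.22 but was not counted, since 54.6 is below the OMCT median. Hp (haptoglobin, which binds free haemoglobin) was also brightest in PICT, at 48.7 against 18.3 and 16.5, and stayed below every array median.

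The fibrinogen genes and prothrombin were near the floor, while some other plasma protein genes lay above the negative control but below the array medians. C5, C6, C9, Cfi, F2, F10, F13a1, Fga, Fgb, Fgg, Proc, Plg and Hp lay below the median probe set on every array, 13 of 41 genes (31.7%, a share near the 30.7% of all genes). Their intensities ran from 0.234 to 48.7 in PICT, from 0.279 to 22.8 in PCT and from 1.22 to 35.7 in OMCT. The negative control was not exceeded by 8 of the 13 (PICT), 6 (PCT) and 3 (OMCT). F2 (prothrombin) and the fibrinogen genes Fga and Fgb read under 1.5 on every array, and Fgg was 0.234, 0.279 and 4.92. The 5 hepatocyte markers, Alb among them, summed to 88.7 (PICT), 91.2 (PCT) and 92.8 (OMCT). F13a1 (the A chain of the fibrin crosslinking enzyme, found in some tissue macrophages) read 2.60, 10.2 and 21.7. At these levels no fold is given.

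**Figure D3:**
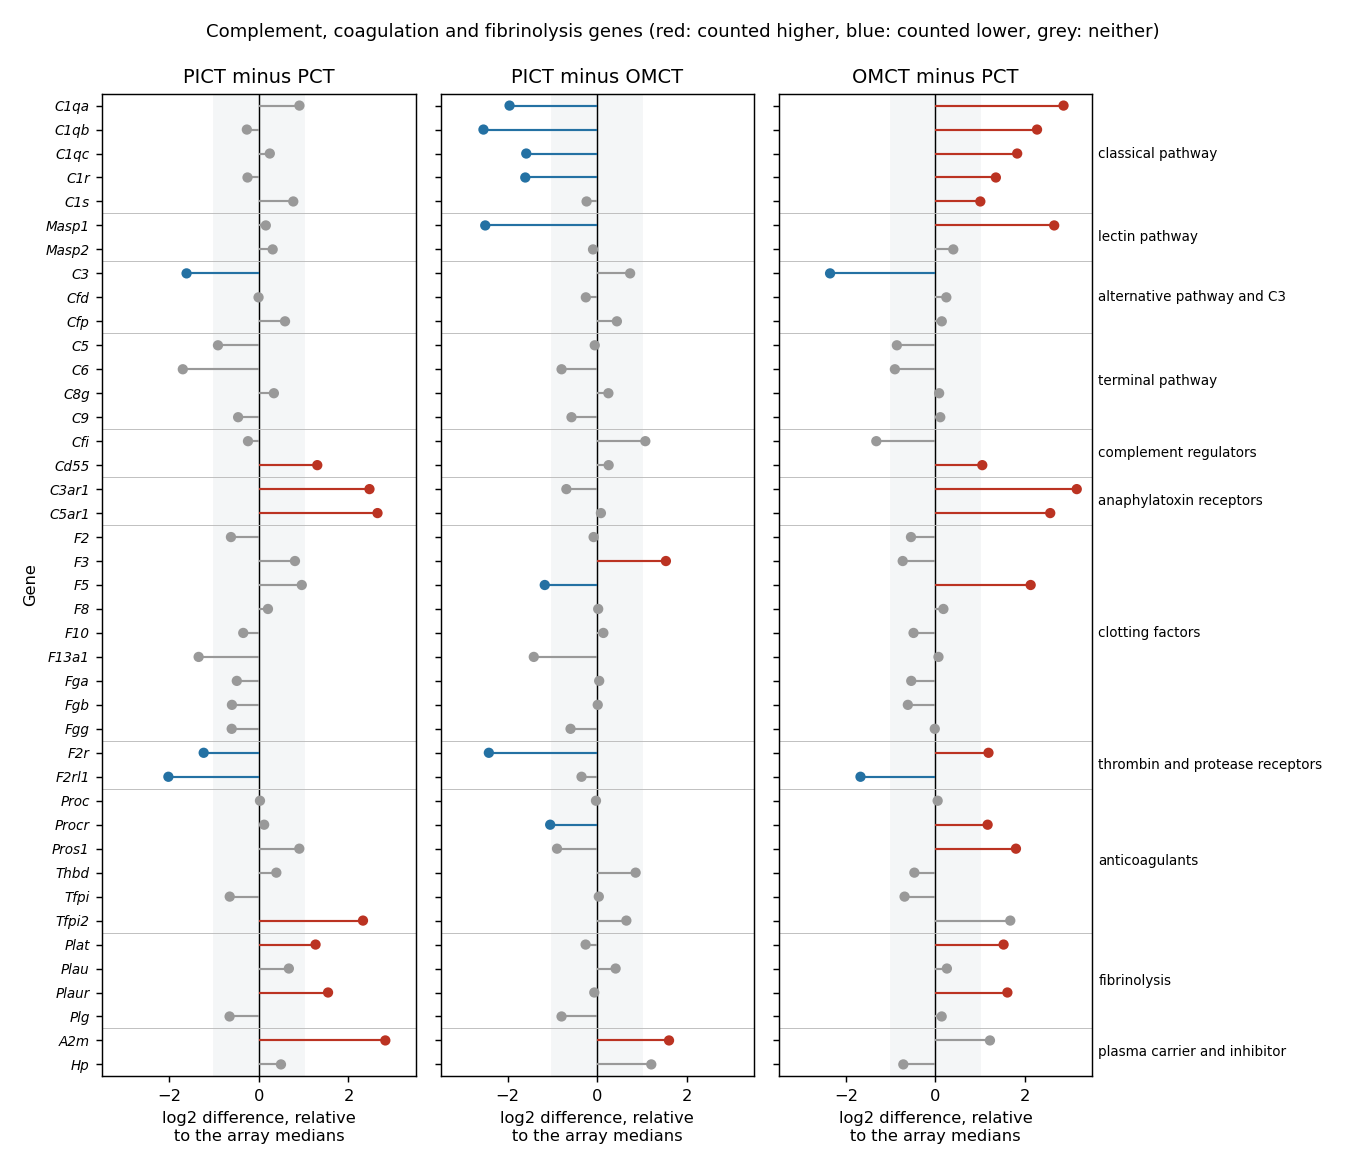
Log2 difference of each of the 41 genes in the 3 comparisons, relative to the array medians, with the span from -1 to 1 shaded. Red points were counted higher (7, 2 and 15 genes from left to right), blue points lower (3, 8 and 2), and grey points neither, either inside the span or with a brighter array below its median.

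Counted over the whole set, PICT against PCT, which asks how tissue beside an implant differs from tissue beside a tooth, gave 7 of 41 genes higher (17.1%, against 3.98% of all genes): A2m, C5ar1, C3ar1, Tfpi2, Plaur, Cd55 and Plat. Another 3 were lower (7.32%, against 3.37%): F2rl1, C3 and F2r. As deposited the split was 14 higher and 2 lower, where 14.1% and 0.9% of all genes were counted. The median difference of the 41 genes was 0.15, beside -0.13 over all genes.

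PICT against OMCT, which sets a socket with an implant against one without, gave 8 of 41 genes lower (19.5%, against 4.46%): C1qb, Masp1, F2r, C1qa, C1r, C1qc, F5 and Procr. A2m and F3 were higher, 2 of 41 (4.88%, against 4.15%), a share near that of all genes. As deposited the same counts were found, with 4.64% of all genes lower and 3.98% higher. The median difference was -0.08, beside -0.04 over all genes. Against OMCT, 4 of 7 fibroblast markers were lower in PICT and 0 higher, with a summed intensity of 17739 (PICT), 13808 (PCT) and 31286 (OMCT). Markers of differentiated epithelium were higher in PICT for 6 of 7. The part of these cell types in the lower genes was not tested.

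OMCT against PCT, which sets a healed extraction site against tissue beside a tooth, gave the most counted genes. Among 41 genes, 15 were higher (36.6%, against 5.66%), among them all 5 classical pathway genes, Masp1, both anaphylatoxin receptors, Cd55, F5, F2r, Procr, Pros1, Plat and Plaur. C3 and F2rl1 were lower, 2 of 41 (4.88%, against 4.81%), a share near that of all genes. As deposited 16 were higher and 2 lower, against 17.6% and 2.1% of all genes. The median difference was 0.18, beside -0.08 over all genes.

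**Figure D4:**
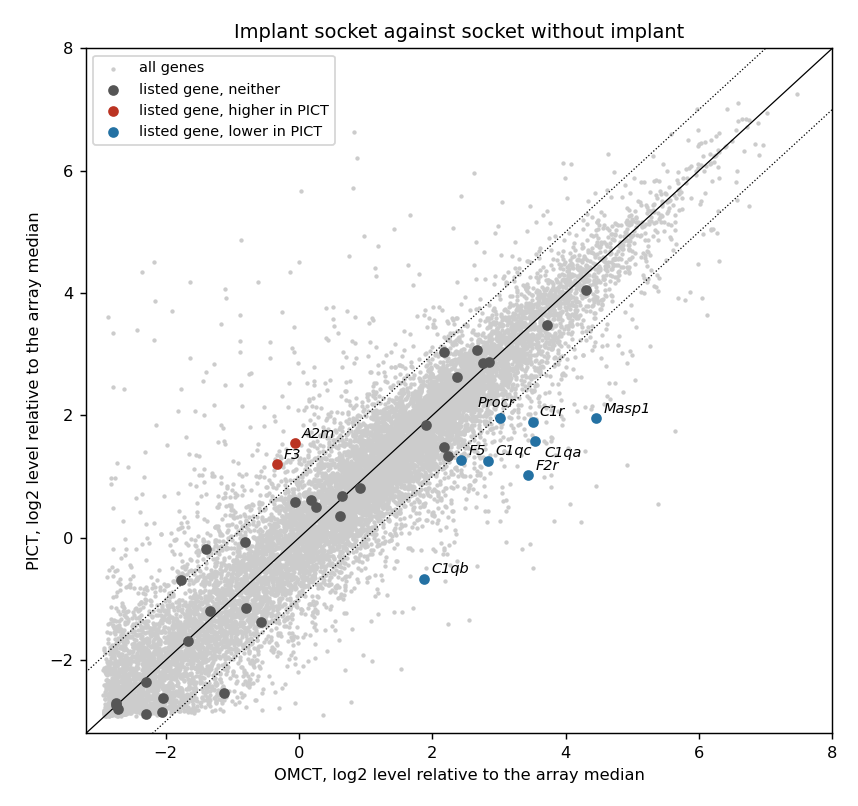
Level in PICT against OMCT (log2, relative to the array median) for 14217 genes in grey and the 41 listed genes in dark grey, red (higher in PICT) or blue (lower in PICT); the solid line marks equality and the dotted lines a difference of 1. C1qb lies farthest below the line among the listed genes, at -2.54, and A2m and F3 lie above it at 1.61 and 1.54.

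The promoters of these genes were searched for short motifs of factors known from inflammatory and myeloid genes. RefSeq windows of GRCr8 were found for 28 of the 41 genes (30 windows, since Fga and Tfpi have 2 starts), and the 250 bases before the start were read on both strands. C1qc, C1s, C8g, C9, C5ar1, Masp2, F2rl1, F3, F8, Thbd, Plat, A2m and Hp had no window. The AP-1 motif TGANTCA, which reads the same on both strands, was found in 8 of 30 windows (26.7%), and in 6.34% of 33469 windows of the same length over all genes. It lay before 6 of 13 genes counted in at least 1 comparison and 2 of 15 genes that were not. The interferon response element (ISRE) motif was found before Plau alone (3.33%, against 3.41% of all windows). GAGGAAGT (PU.1), TTGCGCAA (C/EBP) and the NF-kB motif had 0 matches in 30 windows, against 2.04%, 0.14% and 0.31% of all windows. None of these motifs overlapped another in the windows searched. A match is a run of letters and no evidence of binding, and the windows were not chosen apart from the genes.

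Of the genes higher in PICT and in OMCT than in PCT, Cd55 has a window without an AP-1 match, and C5ar1 and Plat have no window. C3ar1 and Plaur, also higher in both, are shown in full. They were picked because both hold the AP-1 letters TGACTCA, in capitals, within 100 bases of the start. The windows are chr4:157756531-157756780, minus strand, with the match beginning 72 bases before the start, and chr1:89181113-89181362, plus strand, with the match beginning 83 bases before the start.
C3ar1: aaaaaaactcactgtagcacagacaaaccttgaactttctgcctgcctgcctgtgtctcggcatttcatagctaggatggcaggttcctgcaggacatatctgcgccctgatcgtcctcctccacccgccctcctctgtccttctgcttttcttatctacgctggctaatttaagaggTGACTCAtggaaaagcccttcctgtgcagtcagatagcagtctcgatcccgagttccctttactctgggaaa
Plaur: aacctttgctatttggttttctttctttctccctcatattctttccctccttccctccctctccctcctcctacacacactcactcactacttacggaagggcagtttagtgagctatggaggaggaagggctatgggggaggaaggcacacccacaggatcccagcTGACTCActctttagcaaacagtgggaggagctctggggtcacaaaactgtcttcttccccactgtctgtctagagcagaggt

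The other matches are given with 10 bases on either side, the motif in capitals, so that the letters beside it can be compared. They begin 194 bases before the start of F2r (chr2:28620757-28620783, minus strand), 143 before F5 (chr13:79046504-79046530, plus strand), 217 before Procr (chr3:164714500-164714526, plus strand), 80 before Tfpi2 (chr4:32941340-32941366, minus strand), 159 before Cfp (chrX:3715382-3715408, plus strand) and 234 before Fgb (chr2:170701093-170701119, minus strand). F2r and F5 carry TGAGTCA, Tfpi2 carries TGAATCA and the others TGACTCA.
F2r: ccaatggggcTGAGTCActcctaggct
F5: gcactgttccTGAGTCAcaacctccag
Procr: ccccacccccTGACTCAgcggcgaccg
Tfpi2: gcctcagtcgTGAATCAgccacgtttt
Cfp: ggatcaagggTGACTCAggaaatggag
Fgb: tcattggctcTGACTCAatgattcgaa
F2r, F5 and Procr were higher in OMCT than in PCT, Tfpi2 was higher in PICT than in PCT, Cfp was not counted, and Fgb lay at the floor on every array.

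Other genes of the same pathways, from lists that hold none of the 48 genes, were mostly not counted. Of 28 further complement genes, 22 were measured. For PICT minus PCT 6 were higher and 1 lower (27.3% and 4.55%, against 3.98% and 3.37% of all genes), with a median difference of -0.10. For PICT minus OMCT 0 were higher and 3 lower (13.6%, against 4.46%), with a median of -0.11. For OMCT minus PCT 7 were higher and 0 lower (31.8% higher, against 5.66%), with a median of -0.06. In PICT minus PCT and in OMCT minus PCT, 15 of 22 were counted neither way. Itgam and Itgax, the alpha chains of complement receptors 3 and 4, and their shared beta chain Itgb2 exceeded PCT by 2.35, 2.50 and 2.69 in PICT and by 2.40, 2.15 and 2.90 in OMCT. Colec12, a scavenger collectin, read 207 (PICT), 28.1 (PCT) and 609 (OMCT), and its PICT minus OMCT difference of -1.50 had the direction of the C1q chains. The ficolins Fcna and Fcnb, pattern recognition proteins that bind Masp proteases, exceeded PCT by 1.59 and 1.23 in PICT and by 2.52 and 1.81 in OMCT. Cd93, an endothelial and myeloid surface lectin, differed by -2.08 between PICT and OMCT. Clu (clusterin, a chaperone that blocks the terminal complex) differed by -1.77 between PICT and PCT.

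Of 21 further coagulation genes 15 were measured, with 1 higher (Klkb1) and 1 lower (Vwf) in PICT than in PCT, 2 lower in PICT than in OMCT (Vkorc1 and Vwf) and 0 counted in OMCT against PCT. Of 14 further fibrinolysis genes 12 were measured. Serpine2 (protease nexin 1, an inhibitor of thrombin and urokinase) and Lrp1 (the endocytic receptor for alpha-2-macroglobulin and for protease complexes) were higher in PICT than in PCT, by 1.57 and 1.16, and in OMCT than in PCT, by 2.49 and 1.73. Serpinb2 was higher in PICT than in OMCT and lower in OMCT than in PCT. The remaining fibrinolysis genes were not counted.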

How the data were processed

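The authors deposited 1 intensity per probe set on a linear scale for 31099 probe sets on 3 arrays. Per the labels' protocols, RNA was purified on RNeasy columns, amplified and biotin-labelled with a kit that primes from the poly(A) tail, and hybridised to a rat GeneChip. Probe summarisation and scaling between arrays are not given in the sources used here, and neither is a genome build.

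Symbols came from a 2016 platform annotation: 20832 probe sets had 1 symbol, 436 several and 9831 none, and all 41 genes were matched by gene ID to RefSeq. Values were log2(intensity + 8.56), the 20th percentile of all values, minus the array median. Genes were called by size alone. Calculations used Python 3.11.15 with pandas 2.3.3. They were tested on simulated arrays with little noise and large differences planted in bright genes. That test does not cover calls near 2-fold or dim genes. Values are given for genes called in at least 1 comparison or above the median on every array, and for some of the dimmer genes. Of the further complement, coagulation and fibrinolysis genes, at most 10 have values, by size of difference. Some cell type markers have values too. The genes and lists were chosen with earlier results of these data known. The alternatives were other scalings, pseudocounts, probe set rules, filters and a stricter fold. The number of arrays limits the precision.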

Additional observations from a re-analysis of the deposited data

How the results depend on the processing

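With 1 array per tissue no array could be left out. No paired analysis was possible because each group has 1 sample. The 6 alternatives compared first were of scaling, pseudocount, filter and probe set, without the stricter fold. Dropping the filter could lose no call, and the mean over probe sets could change only genes with more than 1 probe set. Of 37 differences called among the named genes, 32 stayed called under all 6, and 0 reversed. The others were F2r in PICT minus PCT, lost with values as deposited (-0.63) and with a pseudocount at the median of all values (-0.85), C1s in OMCT minus PCT, lost with quantile normalization (0.98) and with a pseudocount of 1 (0.93), Cd55 in OMCT minus PCT, lost with the mean over its probe sets (0.995), and Procr in PICT minus OMCT (-0.95) and F2rl1 in OMCT minus PCT (-0.96), both lost with the pseudocount at the median. As deposited, 14 genes were higher in PICT than in PCT against 7 relative to the medians, where 14.1% and 3.98% of all genes were counted. The as deposited median difference of the 41 genes was 0.76 for PICT minus PCT and 0.80 for OMCT minus PCT. Over all genes it was 0.47 and 0.54. Over the brighter genes of the set only, relative to the array medians, the median difference was 0.72 for PICT minus PCT and 1.44 for OMCT minus PCT. For PICT minus OMCT it was -0.47, and no value over all brighter genes was taken. Without the filter on low values 5 genes were lower in PICT than in PCT (6.65% of all genes) and 4 were higher in PICT than in OMCT (5.86%). With the pseudocount at the median, 1 gene was lower in OMCT than in PCT. At a log2 threshold of 1.5 the counts higher and lower were 5 and 2 for PICT minus PCT (1.99% and 1.04% of all genes), 2 and 6 for PICT minus OMCT (1.95% and 1.71%) and 10 and 2 for OMCT minus PCT (2.88% and 2.47%). Genes below the negative control have no measured fold.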

Other observations

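Blood cell markers differed between the arrays in their own ways. Hbb, a haemoglobin chain, read 415 (PICT), 765 (PCT) and 129 (OMCT), and 2 of 3 erythroid markers were lower in PICT than in PCT and in OMCT than in PCT. The platelet chemokine Pf4 read 339.6 (PICT), 34.7 (PCT) and 351 (OMCT), with PCT far below the others, whereas Ppbp, another platelet chemokine, read 370.2, 532 and 185. Of 4 platelet markers 1 was higher and 1 lower both in PICT minus PCT and in OMCT minus PCT, and 0 were counted in PICT minus OMCT. All 4 measured neutrophil markers were higher in PICT than in OMCT, by 1.08 to 3.28, and 3 of 4 were higher in PICT than in PCT. S100a9 read 2794 (PICT), 157 (PCT) and 720.1 (OMCT). Of 4 mast cell and 3 skeletal muscle markers, 0 were counted in any comparison.

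Hepatocyte markers were counted for 1 of 5 genes in 1 comparison: Apoa1 differed by -1.47 between PICT and PCT. Basal epithelial markers were lower for 1 of 7 genes in PICT than in PCT (Krt15) and for 2 of 7 in OMCT than in PCT (Cdh1 and Dsp). Among markers of differentiated epithelium 0 of 7 were counted between PICT and PCT, with Krt1 at 0.83 and Krt24 at -0.69, and 6 of 7 were lower in OMCT than in PCT.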
